A study of Homo sapiens with 4 samples.

Results

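The genes of the proteasome were followed in cells labelled NB4, an acute promyelocytic leukemia line, after 24 h with 8 μM dBET1 (2 libraries) or with its solvent DMSO for the same time (2 libraries). Members were all protein-coding genes whose symbol is PSM, a letter from A to G and a number, together with POMP, which gave 51 of the 64252 gene identifiers in the count table. PSMC3IP and PSME3IP1 entered through their names alone, since they encode partners of proteasome proteins and not subunits, and they are described apart. dBET1 is a degrader that brings BET bromodomain proteins to the E3 ligase adaptor CRBN, so that they are ubiquitinated and sent to the proteasome. RNA-seq counted the reads of each gene in bulk cells of a single line, and the study says only in general that its experiments were repeated. Nothing ties the libraries of a group to separate cultures, so p-values measure only the spread between these samples.

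The 26S proteasome unfolds and cuts proteins tagged with ubiquitin. Its 20S core is a barrel of stacked rings in which alpha subunits form the outer gates and beta subunits form the inner chamber, where PSMB5, PSMB6 and PSMB7 carry the active sites. A 19S particle on each end has a base, which holds a ring of ATPases that pull the substrate in, and a lid. Non-ATPase subunits of the base and lid bind ubiquitin and remove it. Other activators can replace the 19S particle, and dedicated chaperones that are absent from the finished complex build each particle. Each subunit has its own fixed place in the complex, and the transcription factor NFE2L1 is known to raise their genes together when proteasome activity is short.

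The labelled cell line was first checked against its markers. Of 7 promyelocytic genes, 4 did not exceed 3 counts in any DMSO library and 3 of those had none. CD33 had 323 and 335 counts under DMSO and 331 and 323 under dBET1. LYZ had 600 and 489 counts under DMSO and 323 and 345 under dBET1. The sum of MPO, ELANE, PRTN3, AZU1 and CTSG, which encode granule proteins, was 17 and 15 counts under DMSO and 55 and 25 under dBET1. None of 9 erythroid genes was at 0, and their sum was 6034 and 7344 CPM (each count divided by the TMM-normalized depth of its library) under DMSO and 3691 and 3602 CPM under dBET1. A list of 5 lymphoid genes summed to 29.9 and 33.9 CPM under DMSO and to 12.9 and 13.1 CPM under dBET1, nearly all of it CD3D. The granule and erythroid genes go against the label, though CD33 and LYZ had reads, so the cells are called by their label only. The erythroid sum fell together with the proteasome genes, and its part in the results below was not tested. In bulk RNA, fewer cells of a type and less RNA per cell cannot be told apart. Depth ran from 28019956 to 34685645 counts per library.

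Proteasome genes were lower after dBET1 in every class with a tested gene. Of the 51 members, 47 passed the count filter and were tested, and 44 of these were lower at an adjusted p under 0.05, none was higher and 3 (PSME1, PSMD10 and PSMC3IP) were not called. The same rule called 27.6% of the 17971 tested genes lower and 28.0% higher. At both thresholds, which add an absolute log2 fold change above 1, 16 members were lower and none was higher, where 8.54% of all tested genes were lower and 16.9% were higher. The median log2 fold change of the 47 members was -0.89, with a range from -1.503 for PSMB3 to 0.16 for PSMD10, against a median of 0.048 for all tested genes. With the genes that match by name alone left out, 43 of 45 were lower, 16 of them at both thresholds, with a median of -0.91.

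Proteasome genes are abundant, and abundant genes in these libraries were lower more often than others. Of the 47 tested members, 28 belonged to the most abundant 10% of genes, and PSMD2, the first of them, ranked 242 by mean CPM, which is not corrected for gene length. In that top 10% (1798 genes), an adjusted p under 0.05 called 62.1% lower and 13.6% higher, and both thresholds called 16.6% lower and 1.67% higher, with a median log2 fold change of -0.41. In 46 of the 47 members both dBET1 libraries lay below both DMSO libraries, and in PSMD10 both lay above, where the groups were separated downward in 37.4% and upward in 41.9% of all tested genes. In the most abundant 10% the shares were 68.6% and 18.9%. The 3 tested members with the lowest mean CPM were PSME1, PSMC3IP and PSMB10. The counts of each class below are to be read beside these shares and those of all tested genes.

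**Figure D1:**
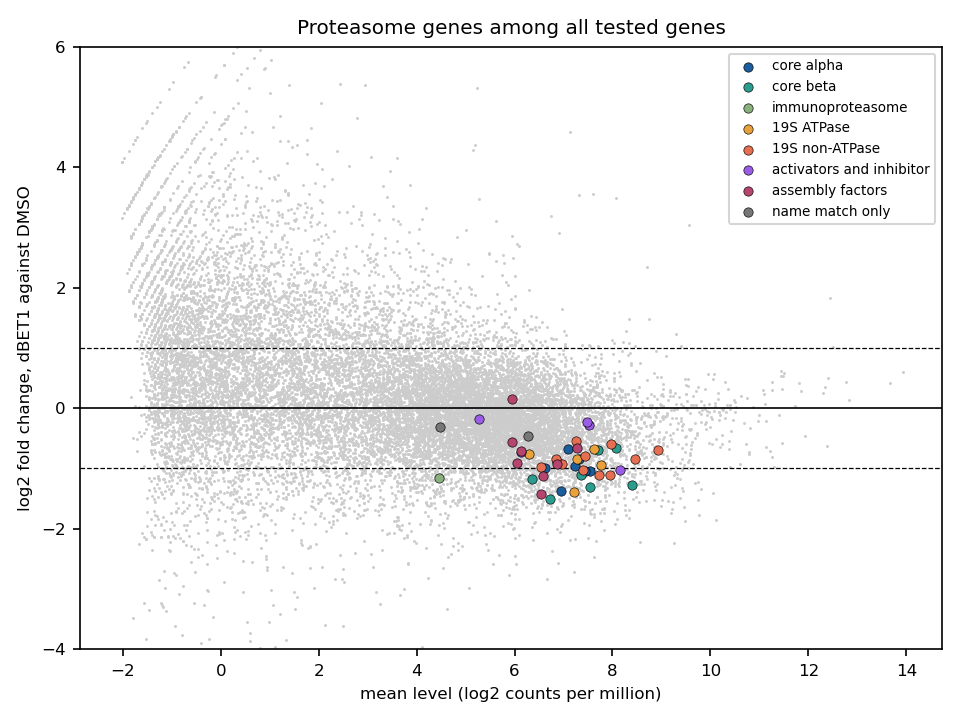
Mean level (log2 CPM, x axis) against log2 fold change of dBET1 against DMSO (y axis) for the 17971 tested genes (grey) and the 47 tested proteasome genes (coloured by class). Dashed lines mark a log2 fold change of 1 in either direction, and 216 grey genes lie beyond the axis, which ends at -4 and 6. The coloured points sit at the right, among abundant genes, and 46 of 47 lie below 0, with PSMD10 above it.

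**Figure D2:**
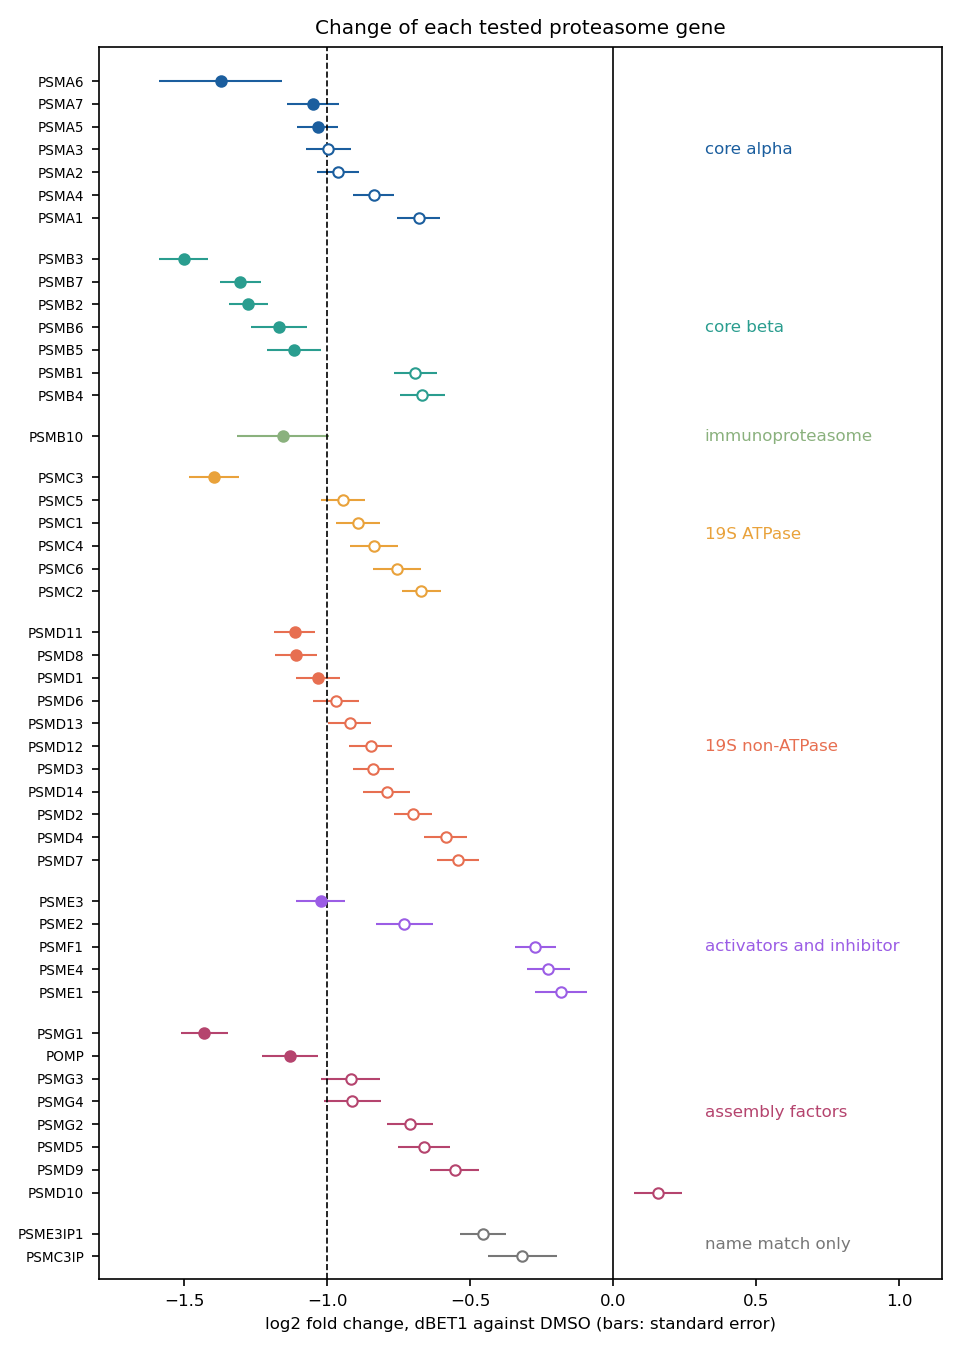
Log2 fold change of dBET1 against DMSO (x axis) with its standard error for each of the 47 tested genes, by class. Filled points are the 16 genes past both thresholds and the dashed line marks -1. Core beta genes reach furthest to the left (PSMB3 at -1.503). The inhibitor PSMF1, the activators PSME4 and PSME1 and the chaperone PSMD10 lie nearest to or beyond 0.

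The promoters of 4 genes are shown because these genes mark the ends of the range. PSMB3 and PSMG1 had the lowest log2 fold changes of all members, and PSME1 and PSMD10 were the proteasome-related members that were not called. Each line gives the 250 bases before the RefSeq start of the gene, on GRCh38.p14 and in the direction of the gene, at chr17:38752491-38752740 (+ strand) for PSMB3, chr21:39183452-39183701 (- strand) for PSMG1, chrX:108091543-108091792 (- strand) for PSMD10 and chr14:24135944-24136193 (+ strand) for PSME1. Capitals mark the antioxidant response element TGACNNNGC, which NFE2L1 and related factors bind, the CCAAT box, which the factor NF-Y binds, and the E-box CACGTG, which MYC binds.
PSMB3: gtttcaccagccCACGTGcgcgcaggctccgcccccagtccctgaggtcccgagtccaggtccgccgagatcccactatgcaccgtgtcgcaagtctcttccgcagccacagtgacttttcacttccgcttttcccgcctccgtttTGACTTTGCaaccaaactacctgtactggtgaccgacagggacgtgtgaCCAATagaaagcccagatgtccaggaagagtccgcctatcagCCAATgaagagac
PSMG1: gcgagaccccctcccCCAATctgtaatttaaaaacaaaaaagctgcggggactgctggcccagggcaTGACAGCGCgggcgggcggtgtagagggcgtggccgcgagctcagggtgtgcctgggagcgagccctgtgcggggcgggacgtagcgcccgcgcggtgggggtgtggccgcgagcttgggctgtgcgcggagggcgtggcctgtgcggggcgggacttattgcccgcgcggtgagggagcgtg
PSMD10: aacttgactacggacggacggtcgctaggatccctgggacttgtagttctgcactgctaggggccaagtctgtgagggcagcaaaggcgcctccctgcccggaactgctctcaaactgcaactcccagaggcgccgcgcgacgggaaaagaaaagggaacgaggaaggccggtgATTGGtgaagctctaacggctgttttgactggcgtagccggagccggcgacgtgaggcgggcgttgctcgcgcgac
PSME1: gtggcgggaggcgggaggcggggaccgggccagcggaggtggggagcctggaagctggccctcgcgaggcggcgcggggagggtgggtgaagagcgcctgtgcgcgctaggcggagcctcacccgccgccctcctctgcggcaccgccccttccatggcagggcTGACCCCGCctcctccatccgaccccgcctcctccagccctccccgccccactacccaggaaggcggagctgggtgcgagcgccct

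The PSMB3 window held an antioxidant response element at -104 to -96 from the start, CCAAT boxes at -55 to -51 and -13 to -9, and an E-box at -238 to -233. In PSMG1 the same element lay at -183 to -175 and a CCAAT box at -235 to -231. PSMD10 had no antioxidant response element in the letters searched and held a CCAAT box on the other strand at -76 to -72, while PSME1 held the element at -86 to -78 and no CCAAT box. The antioxidant response element and the CCAAT box were thus each in a window of a called and of an uncalled gene, and of the 4 windows the E-box was in that of PSMB3 alone.

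RefSeq windows of 300 bases (250 before and 50 after the start) were found for 45 of the 51 members, 56 windows in all, and for 35116 windows of all genes. The member windows include those of PSMC3IP and PSME3IP1. Windows of the same gene can overlap, so that a site can be counted more than once. Searched on both strands, TGACNNNGC was in 26.8% of the member windows and 13.3% of all windows, CCAAT in 42.9% and 34.6%, and CACGTG in 8.93% and 7.26%. The 5 member windows with CACGTG include overlapping windows of PSME3IP1 that hold the same site, so its share does not set the proteasome genes apart. The ETS motif CCGGAAG was in 33.9% and 10.3%, the GC box GGGCGG in 69.6% and 45.0%, and the palindromic site of the nuclear respiratory factor in 3.57% and 1.24%. The 2 member windows with that palindromic site were overlapping windows of PSMA4. No motif searched contains another, but a window can hold several. The 14 tested members with an antioxidant response element had a median log2 fold change of -0.84, and the 27 without it had -0.92. For CCAAT the medians were -0.97 in 20 members with the box and -0.76 in 21 without. For CCGGAAG they were -0.79 in 17 and -0.95 in 24. With CACGTG they were -0.79 in 4 and -0.85 in 37 without, and with GGGCGG -0.84 in 28 and -0.997 in 13. The site of the nuclear respiratory factor gave -0.84 in 1 member and -0.87 in 40. These are descriptions of letters in a window, not of bound factors.

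All 7 constitutive alpha subunits of the core were lower after dBET1, 3 of them at both thresholds, with a median log2 fold change of -0.997. Their summed level was 1328 and 1397 CPM under DMSO and 669 and 709.6 CPM under dBET1, a log2 change of -0.98. PSMA5 and PSMA7 fell in nearly equal measure. PSMA5 stood at 231 and 232 CPM under DMSO and 114 and 113 CPM under dBET1, and its log2 fold change was -1.03 ± 0.071 (SE, adjusted p = 2.66e-05). PSMA7 stood at 233 and 272 CPM under DMSO and 122 and 122 CPM under dBET1, a log2 fold change of -1.05 ± 0.091 (SE, adjusted p = 6.80e-05). In both genes the libraries of a group lay closer together than the groups, and PSMA7 was at -0.96, short of the fold threshold, without DMSO replicate 2. PSMA3 was just short of the fold threshold at -0.997 ± 0.079 (SE, adjusted p = 4.60e-05). PSMA2 followed at -0.96 and PSMA4 at -0.84 on the log2 scale. PSMA1 was the least reduced alpha gene, at 172 and 161 CPM under DMSO and 104 and 104 CPM under dBET1 and a log2 fold change of -0.68 ± 0.076 (SE, adjusted p = 0.000220). PSMA8, the alpha subunit of the testis proteasome, had 0 counts in all 4 libraries, which allows up to 3 counts in each.

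PSMA6 (chr14:35278633-35317493) was the alpha gene with the lowest log2 fold change and the one whose libraries differed most. It stood at 165 and 192 CPM under DMSO and 50.9 and 86.6 CPM under dBET1, a log2 fold change of -1.37 ± 0.22 (SE, adjusted p = 0.00121). The dBET1 libraries lay far apart, and the standard error was the largest among the members. An unnamed coding gene on the same strand, ENSG00000258790, shares 919 exon bases with PSMA6 and had 991 and 315 counts under DMSO and 1717 and 204 under dBET1, more in the library of each group where PSMA6 stood lower. Added to those of PSMA6, they gave 6360 and 5701 counts under DMSO and 3244 and 2848 under dBET1, and the log2 fold change became -0.98 ± 0.091 (SE, adjusted p = 8.81e-05). PSMA6 then stayed lower but was no longer past the fold threshold. How the counting step split reads between these genes is not given in the sources used here.

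**Figure D3:**
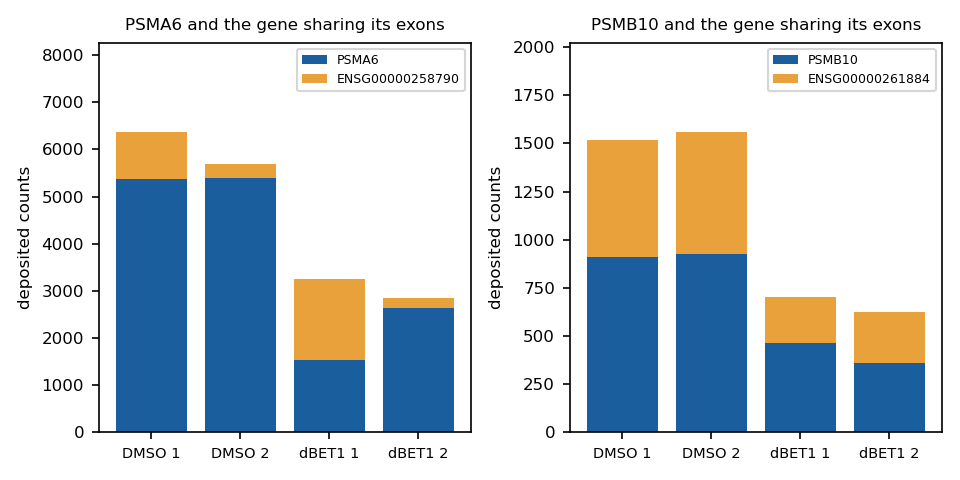
Deposited counts (y axis) in each of the 4 libraries for PSMA6 and PSMB10 (blue) and for the unnamed coding gene that shares exons with each on the same strand (orange), stacked. The PSMA6 counts of the dBET1 libraries are 1527 and 2644, while the stacked totals are 3244 and 2848. For PSMB10 both parts are lower under dBET1.

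Beta subunits of the core had the lowest median of the classes with more than 1 tested gene. All 7 constitutive beta genes were lower, 5 at both thresholds, with a median log2 fold change of -1.17 and a range from -1.503 to -0.67. Their sum was 1758 and 1892 CPM under DMSO and 876 and 887 CPM under dBET1, a log2 change of -1.05. PSMB3 (ENSG00000277791, chr17:38752741-38764225), a structural subunit of the inner ring, stood at 148 and 163 CPM under DMSO and 56.5 and 53.5 CPM under dBET1. Its mean fell to 0.353 times the DMSO level, a log2 fold change of -1.503 ± 0.087 (SE, adjusted p = 1.47e-05). PSMB2, also structural, stood at 475 and 481 CPM under DMSO and 194 and 201 CPM under dBET1, with a log2 fold change of -1.28 ± 0.069 (SE, adjusted p = 1.28e-05). At the other end of the class were PSMB4, at 314 and 347 CPM under DMSO and 203 and 213 CPM under dBET1 with a log2 fold change of -0.67 ± 0.079 (SE, adjusted p = 0.000285), and PSMB1 at -0.69. The standard errors of PSMB3 and PSMB4 do not overlap, but the difference between the genes was not tested.

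The 3 catalytic subunits were all past both thresholds. PSMB7, the trypsin-like subunit (chr9:124353465-124415444), stood at 262 and 268 CPM under DMSO and 106 and 109 CPM under dBET1, a log2 fold change of -1.30 ± 0.071 (SE, adjusted p = 1.33e-05). PSMB6, the caspase-like subunit (chr17:4796144-4798502), stood at 105 and 122 CPM under DMSO and 51.3 and 49.7 CPM under dBET1, a log2 fold change of -1.17 ± 0.098 (SE, adjusted p = 5.86e-05). PSMB5, the chymotrypsin-like subunit and main target of proteasome inhibitor drugs (chr14:23016543-23035230), stood at 206 and 241 CPM under DMSO and 104 and 102 CPM under dBET1, a log2 fold change of -1.12 ± 0.093 (SE, adjusted p = 5.79e-05). In each of the 3 the dBET1 libraries differed from each other by less than the DMSO libraries did on the CPM scale.

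Immunoproteasome genes were nearly silent in these libraries, apart from PSMB10. Interferon normally brings in PSMB8, PSMB9 and PSMB10, which replace PSMB5, PSMB6 and PSMB7 in newly built cores. PSMB8 (chr6:32840717-32844679) had 0 counts in all 4 libraries and its neighbour PSMB9 had 16 and 5 counts under DMSO and 5 and 6 under dBET1, so neither was tested. A count of 0 allows up to 3 counts in a library, and identifiers outside the gene models used here, which held 2.57% of all counts, were not assigned to members. PSMB11, the beta subunit of thymus epithelium, had 3 counts in 1 dBET1 library and 0 in the others. PSMB10 (chr16:67934506-67936864) stood at 27.9 and 32.9 CPM under DMSO and 15.4 and 11.9 CPM under dBET1, a log2 fold change of -1.16 ± 0.16 (SE, adjusted p = 0.000660).

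PSMB10 fell along with the subunit it replaces. Per kilobase of exons, the ratio of PSMB10 to PSMB7 was 0.117 and 0.135 under DMSO and 0.160 and 0.120 under dBET1. The log2 change of this ratio, 0.14, was smaller than the replicate SD of 0.324. Replicate SD here means the square root of the summed log2 variances of the DMSO and dBET1 groups. The two-sided exact permutation test gave p = 0.667. With 2 libraries a group the smallest p such a test can give is 0.333. PSMB10 shares 640 exon bases with another unnamed coding gene on its strand, ENSG00000261884, which had 607 and 633 counts under DMSO and 239 and 264 under dBET1. With those counts added, the log2 fold change of PSMB10 was -1.22. Without dBET1 replicate 2 it was -0.99, short of the fold threshold.

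The 6 ATPases of the 19S ring were all lower, but only PSMC3 passed both thresholds. Their sum fell from 1151 and 1227 CPM to 635 and 629.6 CPM, a log2 change of -0.91, and the median of the genes was -0.87. PSMC3 (ENSG00000165916, chr11:47418769-47426473) stood at 200.4 and 227 CPM under DMSO and 82.1 and 80.4 CPM under dBET1, a log2 fold change of -1.40 ± 0.087 (SE, adjusted p = 1.92e-05). The next, PSMC5, was at -0.94 ± 0.077 (SE, adjusted p = 5.10e-05) on the log2 scale and overlaps FTSJ3 on the other strand, whose counts fell from 6909 and 6187 to 2154 and 2152. PSMC1 at -0.89 shares 76.1% of its exon bases with NRDE2 on the other strand. The part of FTSJ3 and NRDE2 in these counts was not tested. PSMC4 and PSMC6 were at -0.84 and -0.76. PSMC2 was the least reduced ATPase gene, at 245 and 241 CPM under DMSO and 152 and 152 CPM under dBET1 and a log2 fold change of -0.67 ± 0.069 (SE, adjusted p = 0.000154).

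All 11 non-ATPase subunits of the 19S particle were lower, 3 of them at both thresholds, with a median log2 fold change of -0.85. As a class they carried the most counts, 3030 and 3069 CPM under DMSO and 1724 and 1695 CPM under dBET1, a log2 change of -0.83. PSMD11, a lid subunit that links lid, base and core, stood at 343 and 334 CPM under DMSO and 153 and 160.2 CPM under dBET1, a log2 fold change of -1.11 ± 0.071 (SE, adjusted p = 2.08e-05). PSMD8, another lid subunit, stood at 288 and 292 CPM under DMSO and 139 and 129 CPM under dBET1, a log2 fold change of -1.11 ± 0.075 (SE, adjusted p = 2.50e-05). PSMD1, the large scaffold that holds the ubiquitin receptor ADRM1, stood at 229 and 225 CPM under DMSO and 116 and 106 CPM under dBET1, a log2 fold change of -1.03 ± 0.078 (SE, adjusted p = 3.76e-05). In none of the 3 did the groups overlap, which does not set them apart. Groups were separated downward in 37.4% of all tested genes and in 68.6% of the 1798 most abundant, to which all 3 belong. Without dBET1 replicate 2, where PSMD1 stood lower, its log2 fold change was -0.99 and past the adjusted p alone.

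The remaining non-ATPase subunits fell less. Of the other lid subunits, PSMD6 was at -0.97, PSMD13 at -0.92, PSMD12 at -0.85 and PSMD3 at -0.84 on the log2 scale. PSMD14, the deubiquitinase that cuts the ubiquitin chain from the substrate, had a log2 fold change of -0.79 ± 0.081 (SE, adjusted p = 0.000143). PSMD2, the other large scaffold, went from 605 ± 12.9 to 372 ± 1.88 CPM on average (SD, n = 2 each), with a log2 fold change of -0.70 ± 0.067 (SE, adjusted p = 0.000103). PSMD4, a ubiquitin receptor, was at -0.59. PSMD7, the partner of PSMD14 in the lid, was the least reduced, at 183 and 178 CPM under DMSO and 121 and 127 CPM under dBET1 and a log2 fold change of -0.54 ± 0.074 (SE, adjusted p = 0.000588).

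Activators and the inhibitor PSMF1 were the class with the median nearest to 0. Of 5 genes, 4 were lower and 1 passed both thresholds, and the median log2 fold change was -0.27. Of the most abundant 10% of genes, 62.1% were lower and 16.6% were lower at both thresholds. The class sum went from 933 and 874 CPM under DMSO to 609.7 and 606 CPM under dBET1, a log2 change of -0.57, with the largest drop in CPM in PSME3. PSME3, which forms the nuclear activator ring by itself, stood at 408 and 354 CPM under DMSO and 189.9 and 185 CPM under dBET1, a log2 fold change of -1.02 ± 0.086 (SE, adjusted p = 6.01e-05). Without DMSO replicate 1, where it stood higher, the log2 fold change was -0.94 and no longer past the fold threshold. PSME4, the large nuclear activator, was at 198 and 185 CPM under DMSO and 159.7 and 167 CPM under dBET1, with a log2 fold change of -0.23 ± 0.076 (SE, adjusted p = 0.0363). PSMF1 was at 205 and 199.6 CPM under DMSO and 172 and 163 CPM under dBET1, with a log2 fold change of -0.27 ± 0.072 (SE, adjusted p = 0.0140). Both calls were lost with total counts only, at -0.017 for PSME4 and -0.063 for PSMF1, and without either dBET1 library, where the adjusted p was 0.154 to 0.300 for PSME4 and 0.0992 to 0.185 for PSMF1. The call of PSME4 was also lost with at least 10 counts in every library (adjusted p = 0.110), with counts divided by 2 (adjusted p = 0.0532) and with the replicate block (adjusted p = 0.0650).

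PSME1 and PSME2 encode the alpha and beta chains of the interferon-induced activator ring, and they lie near each other on chromosome 14. PSME2 fell, from 87.7 ± 9.34 to 52.8 ± 1.58 CPM on average (SD, n = 2 each), a log2 fold change of -0.73 ± 0.099 (SE, adjusted p = 0.000578). PSME1 (chr14:24136163-24138967) stood at 40.9 and 41.2 CPM under DMSO and 36.8 and 35.6 CPM under dBET1. Its groups did not overlap but lay close, and with a log2 fold change of -0.18 ± 0.092 (SE, adjusted p = 0.123) it was not called, with a value of 0.026 under total counts only. Per kilobase of the canonical transcript, the ratio of PSME1 to PSME2 was 0.415 and 0.359 under DMSO and 0.585 and 0.542 under dBET1. The log2 change of the ratio was 0.54, and the two-sided exact permutation test gave p = 0.333, the smallest it can give. PSME2 shares 216 exon bases with RNF31 on the other strand, which had 1117 and 1039 counts under DMSO and 1074 and 1107 under dBET1.

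**Figure D4:**
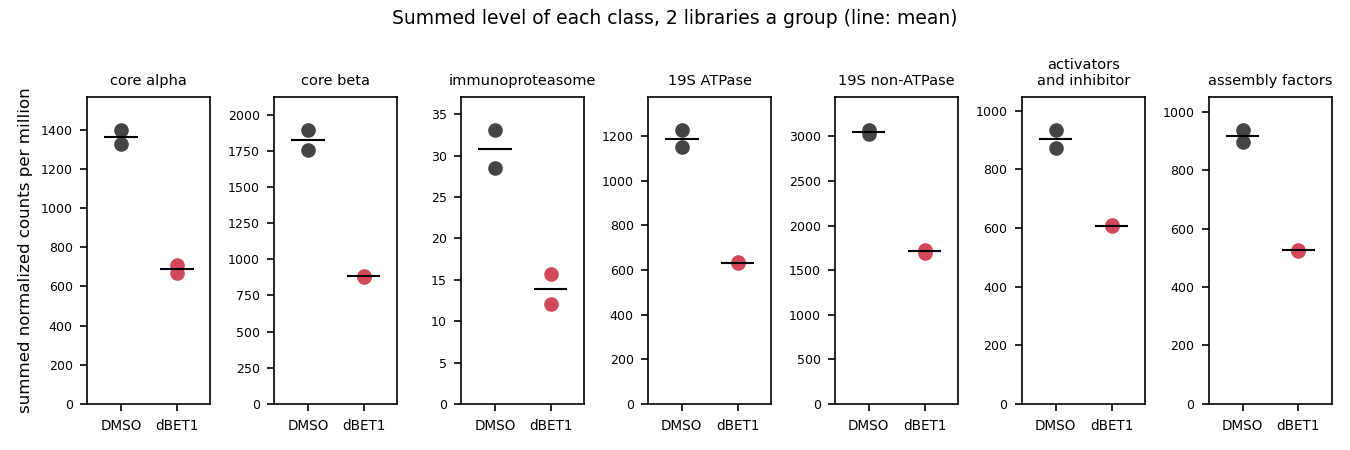
Summed CPM (y axis, from 0) of each class in the 2 DMSO and 2 dBET1 libraries (points, with the mean as a line). Every class is lower under dBET1 in both libraries, from a log2 change of -1.05 for the core beta genes to -0.57 for activators and inhibitor, and -1.16 for the immunoproteasome panel, which is nearly all PSMB10.

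Among the assembly factors, those of the core and those of the 19S particle are given apart. All 5 chaperones of the 20S core were lower, with a median log2 fold change of -0.92, and 2 of them passed both thresholds. Of the 3 members that act on the 19S base, 2 were lower and the median was -0.55. PSMG1 (ENSG00000183527, chr21:39174769-39183488), which pairs with PSMG2 to start the alpha ring, stood at 131 and 140.2 CPM under DMSO and 51.1 and 49.6 CPM under dBET1, a log2 fold change of -1.43 ± 0.082 (SE, adjusted p = 1.45e-05). PSMG2 went from 87.4 ± 2.14 to 53.4 ± 0.735 CPM on average (SD, n = 2 each), a log2 fold change of -0.71 ± 0.081 (SE, adjusted p = 0.000249). The ratio of PSMG1 to PSMG2 per kilobase of the canonical transcript was 0.900 and 0.995 under DMSO and 0.578 and 0.572 under dBET1, a log2 change of -0.72 (two-sided exact permutation p = 0.333, the smallest it can give).

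The other pair of core chaperones, PSMG3 and PSMG4, moved together. PSMG3 had a log2 fold change of -0.92 ± 0.10 (SE, adjusted p = 0.000223) and PSMG4 one of -0.91 ± 0.099 (SE, adjusted p = 0.000193). Their ratio was 0.949 and 0.997 under DMSO and 0.962 and 0.979 under dBET1, a log2 change of -0.0032 with a replicate SD of 0.0543. PSMG4 also shares 1388 exon bases with SLC22A23 on the other strand, whose counts rose from 1362 and 1188 to 2205 and 2247, and the part of those reads was not tested. POMP (chr13:28659065-28678959), which guides the beta ring onto the alpha ring and is then degraded as the first substrate, stood at 122 and 142 CPM under DMSO and 59.2 and 61.5 CPM under dBET1. Its log2 fold change was -1.13 ± 0.097 (SE, adjusted p = 6.58e-05), beside a median of -1.17 for the beta genes that it helps to place.

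Chaperones of the 19S base were the least reduced assembly factors. PSMD5 was at 204 and 176 CPM under DMSO and 117 and 123 CPM under dBET1, with a log2 fold change of -0.66 ± 0.091 (SE, adjusted p = 0.000616), and PSMD9 was at -0.55. PSMD10 (gankyrin, ENSG00000101843, chrX:108084207-108091549), an ankyrin repeat protein that holds PSMC4 during assembly, stood at 59.4 and 57.0 CPM under DMSO and 65.4 and 64.5 CPM under dBET1. It was the only member with both dBET1 libraries above both DMSO libraries, and at a log2 fold change of 0.16 ± 0.083 (SE, adjusted p = 0.142) it was not called. The log2 fold change was 0.37 (adjusted p = 0.00864) with total counts only and 0.23 (adjusted p = 0.0459) with at least 10 counts in every library, and both called it higher.

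**Figure D5:**
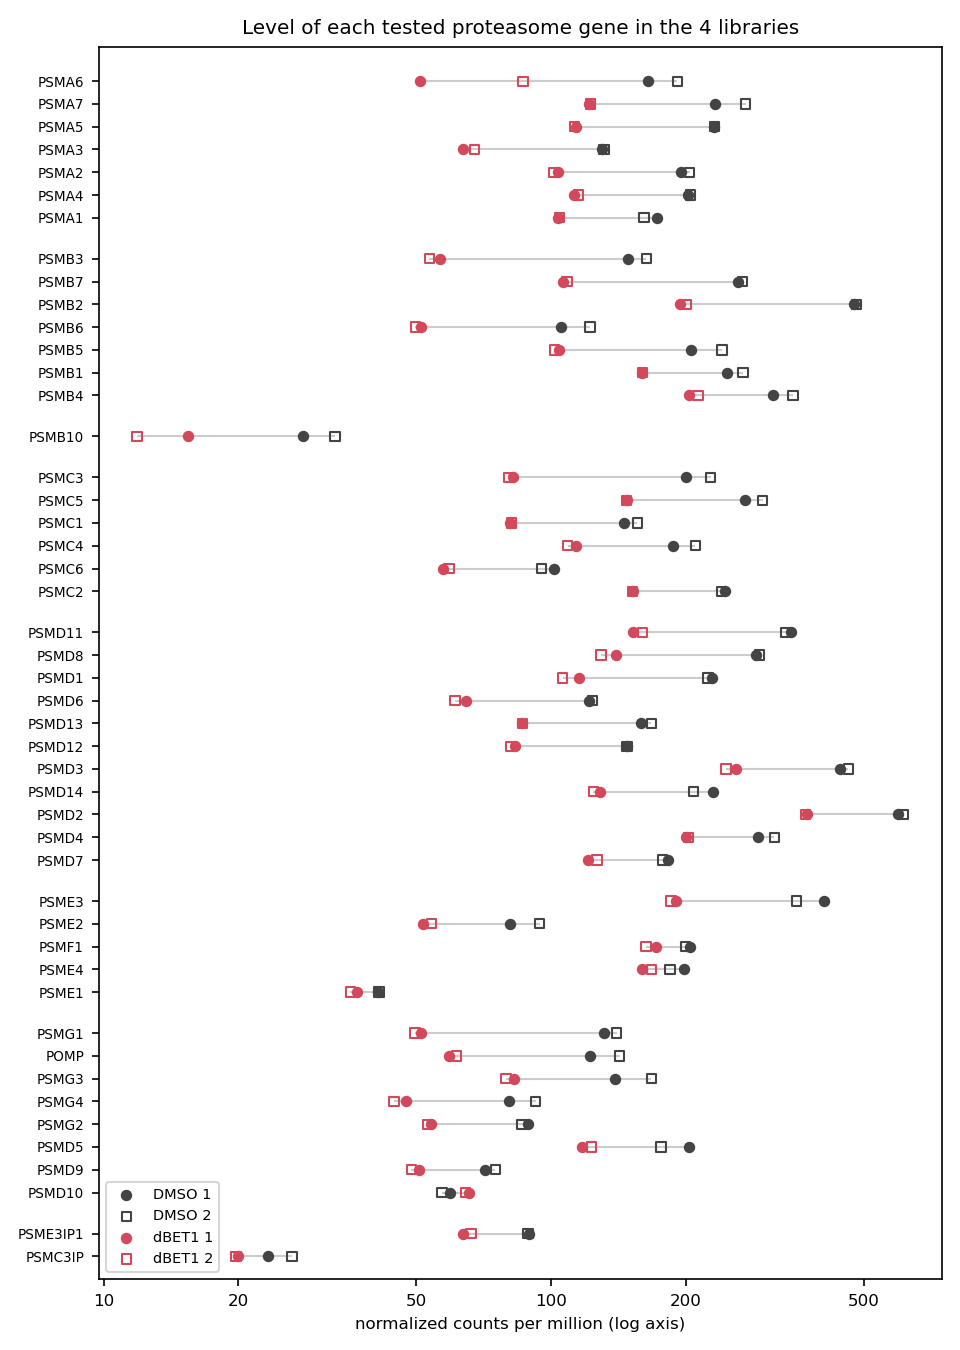
Normalized CPM (x axis, log scale) of each of the 47 tested genes in DMSO replicate 1 (filled black), DMSO replicate 2 (open black), dBET1 replicate 1 (filled red) and dBET1 replicate 2 (open red). In every row but PSMD10 the red symbols lie to the left of the black ones. The dBET1 symbols of PSMA6 and of PSMB10 stand apart.

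For comparisons of levels within a particle, CPM was divided by the length of the Ensembl canonical transcript in kilobases. The 14 constitutive core subunits are present in equal numbers in the protein complex, but their RNA levels per kilobase differed by 7.42 to 8.84 times between the highest and the lowest gene of a library. Under DMSO, PSMB4 was highest at 360.3 CPM per kilobase and PSMA4 lowest at 46.5, and under dBET1 they were at 227 and 26.0. The SD of the log2 levels was 0.813 and 0.864 under DMSO and 0.890 and 0.880 under dBET1. The 17 subunits of the 19S particle spread over 6.63 to 8.30 times. These spreads depend on the length used: per kilobase of all annotated exons PSMA2 was at 23.8 under DMSO, and per kilobase of the canonical transcript at 139.

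PSMC3IP and PSME3IP1 match the symbol rule without being part of the proteasome. PSME3IP1, which binds PSME3, had a log2 fold change of -0.46 ± 0.080 (SE, adjusted p = 0.00208). PSMC3IP, a meiotic recombination factor, had one of -0.32 ± 0.12 (SE, adjusted p = 0.0552) and was not called, except with DESeq2 size factors in edgeR, where it was -0.33 (adjusted p = 0.0477), and without DMSO replicate 1, where it was -0.43 (adjusted p = 0.0141). PSMC3IP shares 775 exon bases with MLX on the other strand, whose counts fell from 3421 and 3129 to 1731 and 1866.

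Summed over the 49 members without these genes, proteasome RNA made up 9124 and 9429 CPM under DMSO and 5057 and 5064 CPM under dBET1. The means were 9277 ± 215 and 5060 ± 4.69 CPM (SD, n = 2 each), a log2 change of -0.87. The two-sided exact permutation test gave p = 0.333 for this sum and for each class, the smallest p that 2 against 2 libraries allow. The fall of the 20S core genes (-0.98 and -1.05 for alpha and beta) was larger than that of activators and inhibitor (-0.57), but the difference between classes was not tested.

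The scale on which all libraries are set moves these values together. With total counts only, the median log2 fold change of all genes was 0.26 in place of 0.048 and that of the members was -0.68 in place of -0.89. Relative to the median of all genes the members stood at -0.94 in both. At both thresholds 6 members remained with total counts only: PSMA6, PSMB2, PSMB3, PSMB7, PSMC3 and PSMG1. Of the 16 members past both thresholds, 5 kept that call under every alternative listed at the end, and these were PSMB2, PSMB3, PSMB7, PSMC3 and PSMG1.

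Genes that work with the proteasome but lie outside the symbol rule were counted in the same way. Of a list of 35, written by role, 34 were tested, and 23 were lower, 2 were higher and 9 were not called, with a median log2 fold change of -0.40. Of the 34, 20 belonged to the most abundant 10% of genes. The same call was lower in 27.6% of all tested genes and 62.1% of that top 10%, whose median was -0.41. NLRC5 did not pass the count filter. Past both thresholds was only UCHL5, a deubiquitinase of the 19S particle, at 180.0 and 162 CPM under DMSO and 70.6 and 77.8 CPM under dBET1 and a log2 fold change of -1.20 ± 0.091 (SE, adjusted p = 3.72e-05). ADRM1, the ubiquitin receptor that anchors UCHL5, went from 200.05 ± 22.5 to 114 ± 0.915 CPM on average (SD, n = 2 each), a log2 fold change of -0.81 ± 0.092 (SE, adjusted p = 0.000250). The genes named from here on, other than NFE2L1, were chosen after their values were seen. SEM1, the smallest lid subunit, was at -0.64, ECPAS, a scaffold that binds proteasomes, at -0.64, and USP14, another deubiquitinase of the 19S particle, at -0.40. VCP, the unfoldase that hands substrates to the proteasome, was at -0.62, and the ubiquitin gene UBB was at -0.79. All of these were called lower, and USP14 lost the call with total counts only (-0.19, adjusted p = 0.0607).

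The RNA of NFE2L1, the transcription factor of proteasome genes, was at nearly the same level in all 4 libraries. It stood at 169 and 166 CPM under DMSO and 164 and 163 CPM under dBET1, a log2 fold change of -0.032 ± 0.070 (SE, adjusted p = 0.722), and was not called. Its log2 fold change ran from -0.086 to 0.18 over the alternatives and was not called in any. Its protein was not measured in these libraries. Of the 4 listed genes of the NFE2L1 pathway, 2 were lower and 2, NFE2L1 among them, were not called. Their median log2 fold change was -0.29, and the same rule called 27.6% of all tested genes lower. In the whole list of 35, the 2 genes called higher were IRF1 at 0.96 ± 0.17 (SE, adjusted p = 0.00215) and AKIRIN2 at 0.29 ± 0.088 (SE, adjusted p = 0.0230) on the log2 scale. IRF1 is an interferon factor that induces the immunoproteasome, and AKIRIN2 carries proteasomes into the nucleus. AKIRIN2 lost the call with DESeq2 (adjusted p = 0.0986), with no filter on low counts (adjusted p = 0.0904) and without either dBET1 library (adjusted p = 0.143 to 0.235). IRF1 was called in every alternative. TAP2, a peptide transporter gene near PSMB8, was lower at -0.56 ± 0.19 (SE, adjusted p = 0.0383), a call lost with DESeq2 (adjusted p = 0.0503), total counts only (-0.36, adjusted p = 0.159), no filter on low counts (adjusted p = 0.0880) and at least 10 counts in every library (adjusted p = 0.0584). It was also lost without DMSO replicate 1 (-0.39, adjusted p = 0.129) and without either dBET1 library (adjusted p = 0.0674 to 0.178).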

How the data were processed

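RNA of cells labelled NB4, treated with dBET1 or DMSO (2 libraries each), was sequenced as paired-end reads. The authors aligned reads to hg38 with HISAT2 2.2.0 (version per the submitters' processing notes), estimated abundances with StringTie and deposited whole-number counts per Ensembl gene, not normalized. The step to counts and its strand setting are not given in the sources used here, so overlapping genes can share reads. Columns were matched to samples by group, time and replicate number, and 0 were left out. The control columns are headed NC, and were taken as DMSO because NC is the only group label beside dBET1. Gene models came from GENCODE release 44, where 8147 of 64252 identifiers had no entry, and 0 rows named no gene.

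Counts were filtered with filterByExpr (minimum count 10), TMM-normalized and compared with edgeR 4.0.16 (limma 3.58.1, R 4.3.3) by the quasi-likelihood test, with group as the sole term, and p-values were adjusted by Benjamini-Hochberg across the 17971 genes tested. Thresholds were an adjusted p under 0.05, alone or with an absolute log2 fold change above 1. Each SE was derived from the test, as the absolute log2 fold change divided by the square root of its F statistic. Depth of 28019956 to 34685645 counts left replicate spread above counting error (chi-square per degree of freedom 23.6 for DMSO and 8.14 for dBET1, biological coefficient of variation 0.123). The limit of 3 counts covers counting error only. Members and gene lists were chosen with earlier results of these data known. Full values are given for the extremes of each class, genes past both thresholds, catalytic subunits, POMP and untested members. In the associated list the rule covers NFE2L1, ADRM1 and genes past both thresholds. A further associated gene is not reported here.

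On 3 simulated data sets of 17715 to 17743 genes, 68 to 78% of genes planted at a log2 fold change of 1 and 90 to 91% at 1.5 were called. Each set had 200 changed genes, drawn from tested genes of any level, and the same dispersion for every gene. Far more genes were called in the real data, so these rates do not give the detection of the members. Alternatives were DESeq2 1.42.0, other normalizations, filters, lengths and counts divided by 2, the replicate block, each library left out, and, chosen after seeing the data, overlapping genes added and canonical transcript length. Promoters are RefSeq sequences on GRCh38.p14, and sequence steps used Python 3.11.15.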

Additional observations from a re-analysis of the deposited data

How the results depend on the processing

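Deviations of same-numbered libraries had a correlation of 0.0023 over the tested genes. With only replicates 1 and 2 in each group, and genes of low counts included, this value cannot exclude a pairing. With the replicate number as a block, 43 members were lower at an adjusted p under 0.05 (44 without it), 16 at both thresholds, with a median log2 fold change of -0.89, and PSME4 lost its call. The lower call at an adjusted p under 0.05 changed by at most 2 members under any alternative. With DESeq2, 18 members were lower at both thresholds.

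With total counts only, 1 member was higher, 6 were lower at both thresholds and the median was -0.68. PSME1 changed sign to 0.026. Of the associated genes 12 were lower, 4 higher, 0 lower and 1 higher at both thresholds, with a median of -0.19. Over all genes 952 were lower at both thresholds, and higher genes made up 80.2% of such calls in place of 66.4%. Class sums changed by -0.77 (core alpha), -0.84 (core beta), -0.70 (19S ATPase), -0.63 (19S non-ATPase), -0.36 (activators and inhibitor) and -0.59 (assembly factors). NFE2L1 changed sign to 0.18, to 0.038 with at least 10 counts in every library and to 0.000039 with counts divided by 2. At least 10 counts in every library gave 1 higher member, 1 associated gene higher at both thresholds and 1940 genes higher at both thresholds. Of the associated genes 1 was higher with DESeq2 and 1 with no filter. The median of all genes was 0.28 with DESeq2 and 0.25 with no filter, over more genes tested, and relative to it the members stood at -1.20 in both. The 19S non-ATPase sum changed by -0.79 with the longest transcript length, and activators and inhibitor by -0.65 with the canonical length. The cause was not tested.

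Leaving out each library in turn gave 42 to 45 members lower, 0 higher, and 15 to 21 lower at both thresholds, with a median of -0.94 to -0.87. In the associated list 17 to 25 were lower, 1 to 3 higher, 1 to 2 lower and 0 to 1 higher at both thresholds, with a median of -0.43 to -0.397. Over all genes, 3777 to 5343 were lower and 3356 to 5118 higher, 1516 to 1709 lower and 2309 to 2953 higher at both thresholds. Class sums changed by -1.03 to -0.94 (core alpha), -1.10 to -0.996 (core beta), -1.35 to -0.97 (immunoproteasome), -0.96 to -0.86 (19S ATPase), -0.85 to -0.82 (19S non-ATPase), -0.62 to -0.52 (activators and inhibitor) and -0.83 to -0.77 (assembly factors). The PSMB10 to PSMB7 ratio changed by -0.066 to 0.35. The PSMB9 to PSMB6 ratio changed by -0.38 to 1.3002, on 16 counts of PSMB9 or fewer. A library left alone in its group was assumed to vary like the other group.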

Other observations

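Genes that carry a proteasome symbol but fall outside the rule were also counted. These were 45 pseudogenes, of which 31 had 0 counts in all 4 libraries and 4 were tested, and 7 non-coding genes, of which 2 had 0 counts and 3 were tested. The genes named here were chosen after their values were seen.

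PSMG3-AS1, an antisense RNA gene that shares 60 exon bases with PSMG3 on the other strand, rose while PSMG3 fell. It had 124 and 78 counts under DMSO and 1024 and 992 under dBET1, a log2 fold change of 3.33 ± 0.18 (SE, adjusted p = 1.22e-05). PSMA3-AS1 had 756 and 641 counts under DMSO and 977 and 883 under dBET1, a log2 fold change of 0.42 (adjusted p = 0.0147). PSMD6-AS2, which overlaps PSMD6 on the other strand, had 21 and 13 counts under DMSO and 45 and 32 under dBET1, a log2 fold change of 1.19 (adjusted p = 0.0404). These were the 3 tested non-coding genes, and all were called higher, where the same rule called 28.0% of all tested genes higher. Their sense partners PSMG3, PSMA3 and PSMD6 were lower, as were 44 of the 47 tested members. PSMD6 and PSMD6-AS2 share 352 exon bases, and PSMA3 shares none with PSMA3-AS1 in the gene models used. Without a stated strand setting, reads from the shared exon bases cannot be assigned to a gene or its antisense partner.

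Of the 4 tested pseudogenes, 3 were called lower, where the same rule called 27.6% of all tested genes lower. No pseudogene exceeded 68 counts in a library. PSMA6P1 had a log2 fold change of -1.10 (adjusted p = 0.0226), PSMC1P1 one of -1.17 (adjusted p = 0.0201) and PSMC2P1 one of -1.22 (adjusted p = 0.0331). PSMD7P1 at -0.67 (adjusted p = 0.332) was not called. Pseudogene copies can share reads with their parent genes, so these values are uncertain.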
